A study of Mus musculus with 8 samples.

Results

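Kupffer cell subcluster i3 is a group of 109 single-cell transcriptomes of macrophages from the adult mouse liver, out of 651 immune cells and 3491 cells in the whole series. Its members are the cells that carry number 3 in the deposited multilevel clustering of the immune cells, and no expression value was used to choose them here. The series measured mRNA of sorted single cells by Smart-seq2, a plate-based method that reads whole transcripts from 1 cell per well, in 8 pools given by cell class (mesenchymal, endothelial, immune or epithelial) and sex. The mice were healthy and untreated, on a C57BL6/J background with heterozygous fluorescent reporter transgenes for mesenchymal or endothelial cells in some animals, and 8 weeks to 1 year old. Livers were not perfused and were dissociated with collagenase, and macrophages were sorted with an antibody against CD68. Of the 109 cells, 99 came from the female immune pool and 10 from the male one, and the sources used here do not say which mouse a cell came from.

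Kupffer cells are the resident macrophages of the liver. They sit in the sinusoids, the fenestrated capillaries of the lobule, where they bind bacteria and complement-coated particles from portal blood, take up ageing red blood cells and recycle the iron, and clear lipids and cell debris through a large lysosomal system. Their identity is kept by signals from neighbouring stellate, endothelial and liver parenchymal cells, among them colony stimulating factor, Notch ligands and transforming growth factor family proteins.

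One 384-well plate (liver_057s), which held cells of females, contained 92 of the 109 i3 cells, or 84.4%. The same plate held 161 of the 164 cells of Kupffer cluster i7, so that both clusters could be compared within 1 plate and 1 sex. This plate is called the shared plate. The remaining i3 cells came from another female plate (7 cells), from a male plate (9 cells) and from a second male plate (1 cell). On the shared plate both clusters lay across 16 rows and 24 columns, and 53.3% of i3 cells and 52.2% of i7 cells were in the first 12 columns. No well name occurred more than once (0 of 3491). Since all cells of a plate count as 1 sample, and since the clusters were drawn by the authors from the same transcriptomes, no test was made between i3 and i7 and no p-value is given. Intervals cover counting error only, and reads without molecular identifiers are not independent molecules.

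Marker genes of Kupffer cells were counted in nearly all cells of both clusters. Summed over 10 general Kupffer markers, none of them at 0, the level was 23997 CPM in i3 and 24230 CPM in i7. On the other plates i3 cells had lower sums than the Kupffer cells of i1, i6 and i7 beside them, with 19077 against 36597 CPM on the other female plate, 15838 against 26290 CPM on the male plate and 24122 against 33540 CPM for the 1 cell of the second male plate. The Kupffer cell lectin Clec4f, the mannose receptor gene Mrc1, the vascular endothelial cadherin gene Cdh5 and the interferon-inducible helicase gene Ddx60 were counted in 92, 92, 90 and 75 of the 92 i3 cells, and in 161, 161, 160 and 137 of the 161 i7 cells. All 4 genes were thus found in both clusters. The complement receptor gene Vsig4, the phosphatidylserine receptor gene Timd4, the folate receptor gene Folr2 and the secreted scavenger gene Cd5l were counted in all 92 i3 cells. Of 15 listed T and natural killer cell genes, the 3 set as defining markers (Cd3e, Trbc2 and Nkg7) had a count in 0 of 92 i3 cells, which for each of these genes allows a share of up to 3.26% of cells with a count. Other genes of the list were counted, with Cd3d in 18.5% of i3 and 18.6% of i7 cells, and the 15 genes summed to 36.5 against 46.1 CPM, most of it Cd4 (33.4 against 42.0 CPM). At least 1 of 3 B cell markers was counted in 35 of 92 i3 cells (38.0%) and in 87 of 161 i7 cells (54.0%). The sex labels matched the sex-linked genes, with Xist at 597 CPM (gene counts scaled to the same total per group of cells) in the 99 female and 0 CPM in the 10 male i3 cells, and the Y-linked gene Ddx3y at 0.059 and 73.0 CPM.

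Cells of i3 yielded less RNA than cells of i7. Spike-in RNA (ERCC) had been added to the lysis buffer in the same amount per well, so that counts of genes per ERCC count follow the RNA content of a well. On the shared plate the i3 cells gave a lowest, median and highest value of 9.58, 24.1 and 1020 gene counts per ERCC count. The i7 cells gave 43.2, 105 and 453. Of the 92 i3 cells, 71 lay below the lowest i7 cell and 90 below the i7 median. The 1 cell at 1020 had only 378 ERCC counts. Total counts followed, with a median of 143432 per i3 cell against 456042 per i7 cell, and every i3 cell was below the i7 median. Detected genes differed less, with medians of 4634 and 5710 per cell. When each cell was thinned to 50000 counts, which left out no cell, the medians were 3267 and 3701 genes.

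The composition of the RNA differed together with its amount. Mitochondrially encoded RNA made up a median of 3.62% of gene counts in i3 cells and 0.855% in i7 cells, and 61 of 92 i3 cells exceeded the highest i7 cell, which had 2.45%. A list of 10 long non-coding RNAs, here called nuclear RNAs, made up 0.599% against 0.159%, again with 61 i3 cells above the highest i7 cell. The list holds Malat1 and Xist but also Gas5 and Mir142hg, and the location of these RNAs in the cell was not measured. In contrast, 32 Kupffer identity genes made up 3.41% and 3.44%. Across the 92 i3 cells, the mitochondrial share was lower where gene counts per ERCC count were higher (Spearman's rho of -0.85), the nuclear RNA share likewise (-0.55), and the Kupffer identity share hardly varied with it (0.0024). In the 161 i7 cells the same values were -0.68, -0.36 and -0.27. These are descriptions across cells of 1 plate, in which the amount of RNA is part of both measures.

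**Figure D1:**
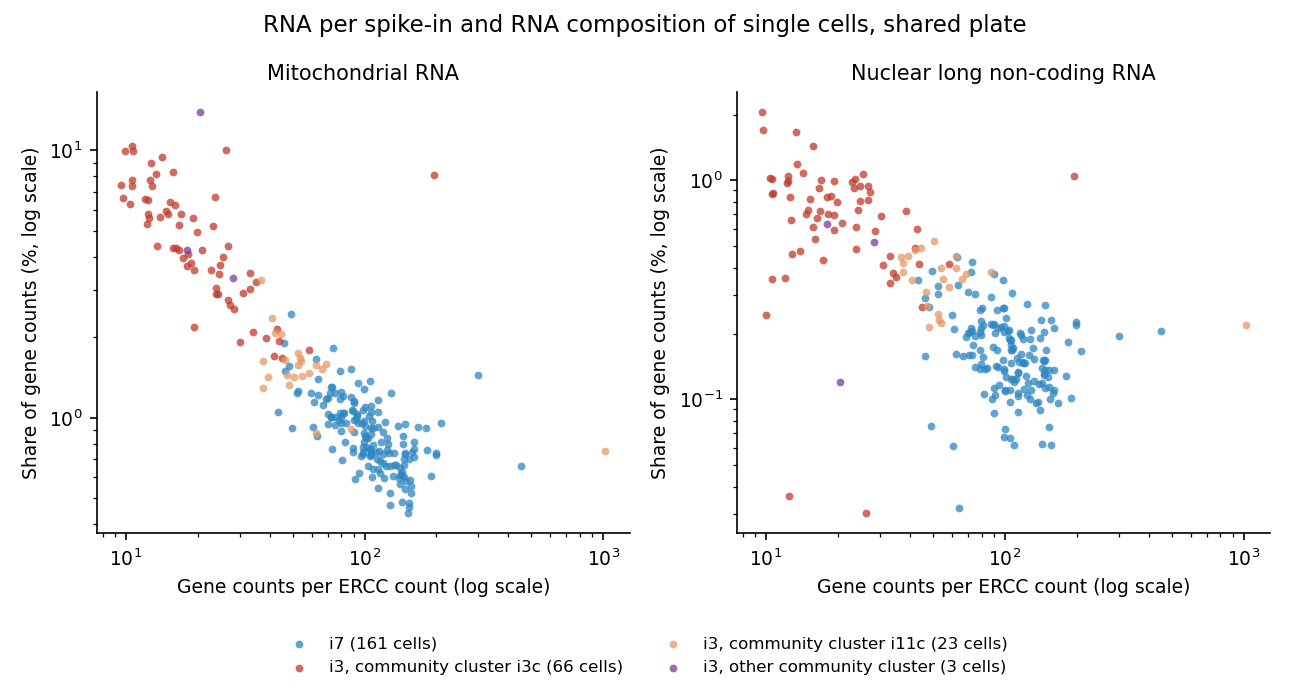
Each point is 1 cell of the shared plate, with gene counts per ERCC count on the x axis and the share of gene counts on the y axis (both log scales), for all mitochondrially encoded RNAs (left) and the listed nuclear long non-coding RNAs (right). Cells of i3 in community cluster i3c sit at the low-RNA end with shares mostly above those of i7, while the 23 cells in i11c lie between them and i7.

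Because of this difference in RNA amount, each gene is given on 2 scales. CPM of the summed counts shows the composition of the RNA, and counts per 1000 ERCC counts show its amount per well. Moving from CPM to the ERCC scale shifts every log2 ratio of i3 to i7 by -1.85, which is a factor of 3.61. Of 46517 genes in the table, 7358 entered, with at least 10 CPM in the higher cluster and a count in at least 25% of its cells. On the CPM scale 886 genes (12%) were at least 2-fold higher and 1228 (16.7%) at least 2-fold lower in i3, with a median log2 ratio of -0.14 over all genes that entered. Higher genes were thus 41.9% of those past 2-fold, but 22.7% when trimmed-mean factors were used, which lower every log2 ratio by 0.30, and 23.4% with median-of-ratios size factors, which lower it by 0.28. Per ERCC count, 33 genes (0.448%) were at least 2-fold higher and 6238 (84.8%) at least 2-fold lower, the median log2 ratio was -1.99, and 233 genes were higher in i3 by any amount. Genes below 10 CPM in 1 cluster could enter only through the other (249 through i3 and 377 through i7), which fixes their direction. Among the 6732 genes with at least 10 CPM in both clusters, 9.86% were at least 2-fold higher and 13.5% lower by CPM, with a median of -0.12. Where a list count on the shared plate held genes that entered through 1 cluster only, the count without them is also given.

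**Figure D2:**
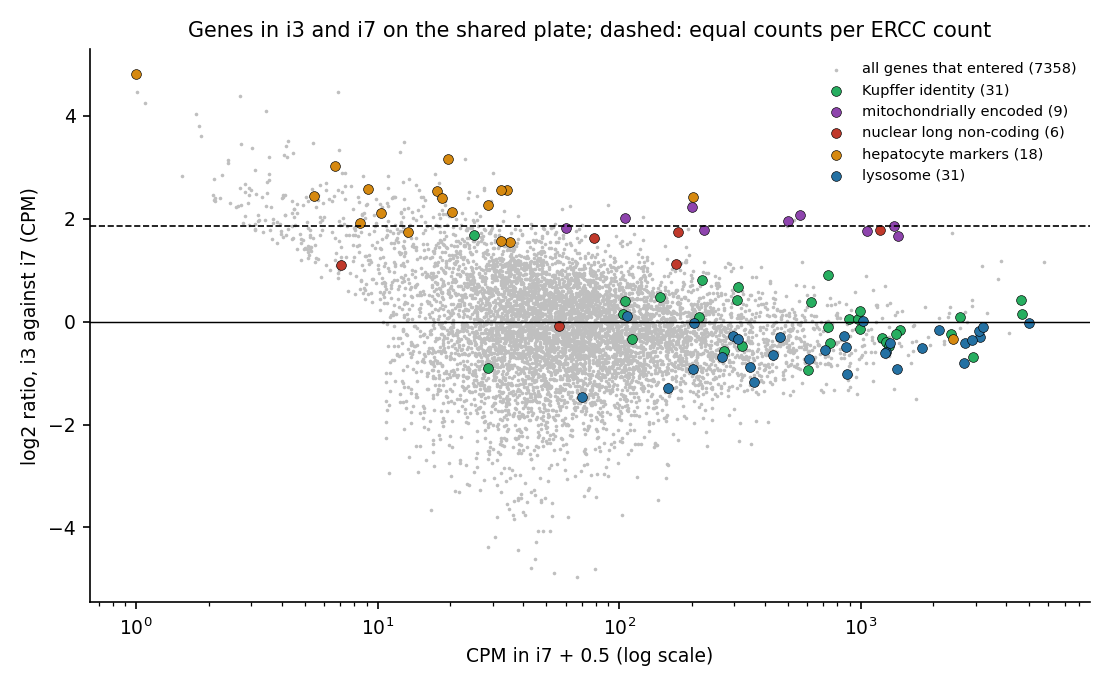
Each grey point is 1 of the 7358 genes that entered, with its CPM in i7 plus 0.5 (log scale) on the x axis and the log2 ratio of i3 to i7 on the y axis. Colours mark 5 gene lists. At the dashed line a gene has the same counts per ERCC count in both clusters. The mitochondrial genes lie near it, most hepatocyte transcripts near or above it, and nuclear transcripts from near it to well below it. Kupffer identity genes lie around 0.

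On the shared plate, Kupffer identity genes made up like shares of the RNA in i3 and i7. Of the 32 listed, 31 entered, 1 was at least 2-fold higher in i3 on the CPM scale and 0 were lower, against 12% and 16.7% of all genes, with a median log2 ratio of 0.04 that became negative under either count-based scaling factor (shifts of -0.30 and -0.28). Per ERCC count the median was -1.81 and 29 of the 31 were at least 2-fold lower, against 84.8% of all genes. On the other female plate 7 of 32 were at least 2-fold lower and 3 higher by CPM, against 45.2% and 25% of all genes there, with a median of -0.23 beside -0.67 for all genes. On the male plate 9 of 29 were lower and 4 higher, against 40.7% and 30.0%, with a median of -0.31 beside -0.45. With at least 10 CPM required in both groups, these medians were -0.23 beside 0.04 and -0.29 beside -0.11, so whether the list lay above or below all genes there depends on this requirement. Clec4f, a lectin that binds galactose-bearing glycans, was at 847, 6579 and 16278 CPM in the lowest, median and highest i3 cell and at 1399, 4789 and 11440 CPM in i7 cells. Pooled, it was at 6179 against 4620 CPM (log2 ratio 0.42) and at 178 against 481 counts per 1000 ERCC counts (log2 ratio -1.43). The ranges overlapped widely, and 74 of 92 i3 cells were above the i7 median on the CPM scale.

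Other identity genes followed the same pattern with a wider range over i3 cells, which also had fewer counts per cell. Mrc1 was at 1002 CPM in i3 and 972 CPM in i7, while its per-cell median was 584 against 883 CPM and its highest cell 5582 against 2462 CPM. Cdh5 was at 411 and 308 CPM, with per-cell medians of 244 and 261 CPM. Over all endothelial cells of the series, sequenced on other plates, it was at 468 CPM. Vsig4 was at 1995 and 2371 CPM, Timd4 at 561 and 745 CPM, Cd5l at 5203 and 4663 CPM, and the scavenger receptor gene Marco at 918 and 891 CPM. The largest differences among the identity genes were found for Adrb1, a beta-adrenergic receptor gene (79.9 against 24.5 CPM, the 1 gene past 2-fold), for the kinase gene Dmpk (1380 against 733 CPM) and, in the other direction, for the ectoenzyme gene Cd38 (317 against 606 CPM).

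**Figure D3:**
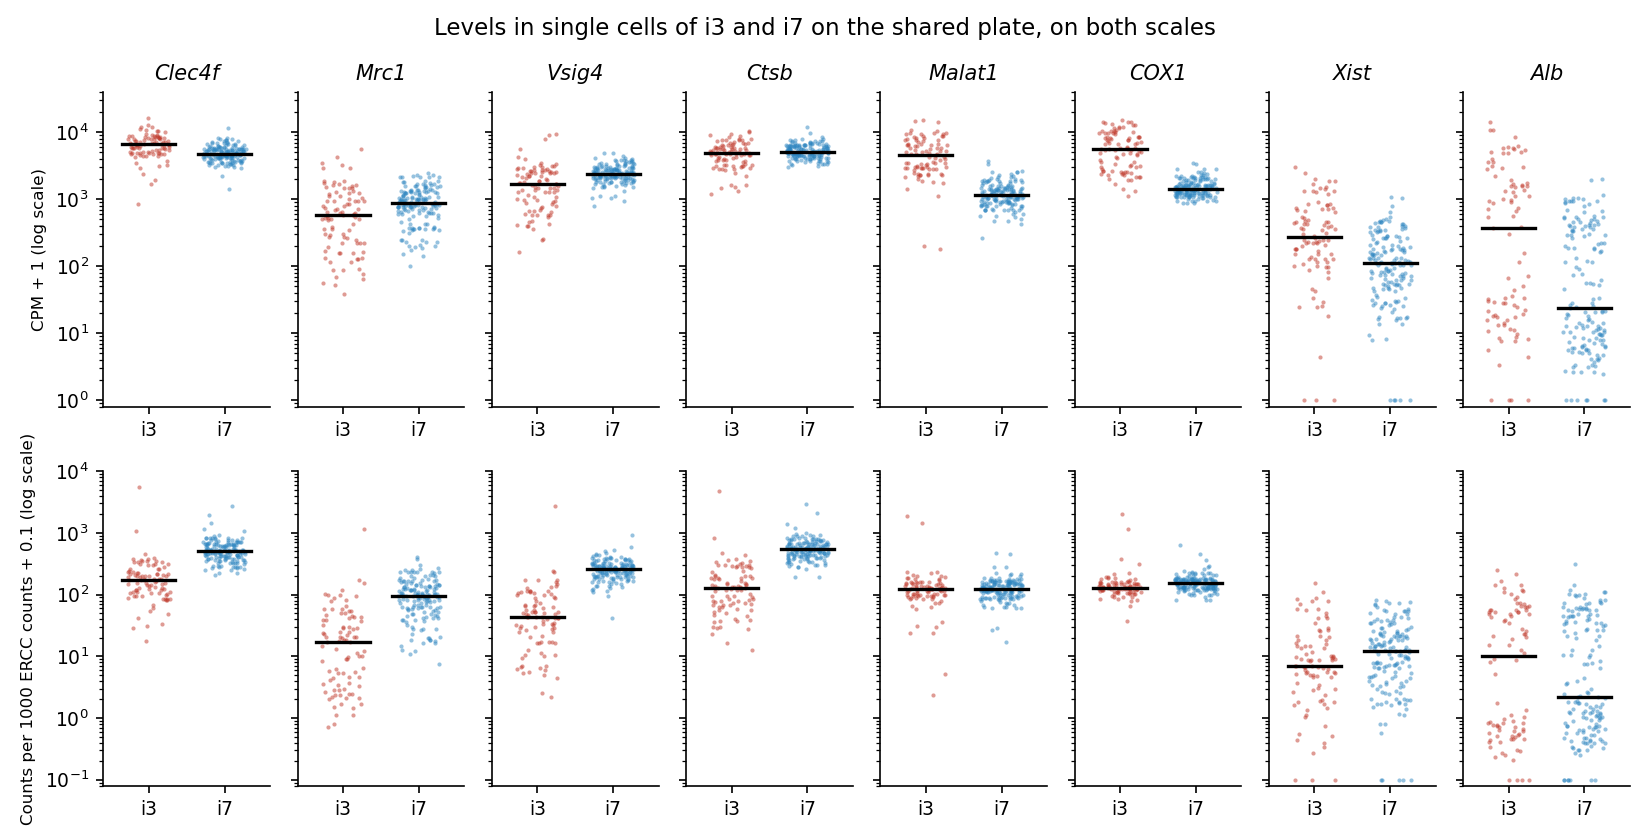
Each point is 1 cell of the shared plate (92 of i3 in red, 161 of i7 in blue), with CPM plus 1 in the upper row and counts per 1000 ERCC counts plus 0.1 in the lower row (log scales), and the black line is the median. Clec4f, Mrc1, Vsig4 and Ctsb are near each other on the CPM scale and lower in i3 per ERCC count, whereas Malat1 and COX1 are higher in i3 by CPM and near each other per ERCC count.

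A few macrophage and iron-handling genes took a smaller share of the RNA in i3. Adgre1, which encodes the F4/80 antigen, was at 27.6, 194 and 10140 CPM in the lowest, median and highest i3 cell against 66.4, 1636 and 4673 CPM in i7 cells, and 9 of 92 i3 cells were above the i7 median. Its log2 ratio was -1.50 by CPM and -3.35 per ERCC count. Slc11a1, which encodes the phagosomal metal transporter NRAMP1, was at 558 against 1377 CPM (log2 ratio -1.30), with 10 of 92 i3 cells above the i7 median. Ncoa4, the cargo receptor for ferritin breakdown, was counted in 46 of 92 i3 cells (50%, exact 95% interval 39.4 to 60.6%) and in 150 of 161 i7 cells, and was at 19.4 against 112 CPM (log2 ratio -2.50). The ferroportin gene Slc40a1 was at 1808 against 2912 CPM, while the ferritin light chain gene Ftl1 was at 1721 against 1127 CPM. Cd68, whose protein was the sorting antigen, was at 822 against 1311 CPM, and 14 of 92 i3 cells were above the i7 median. The receptor gene Csf1r was at 3543 and 4133 CPM. Over the whole macrophage list, 0 of 21 genes were at least 2-fold higher and 2 (Adgre1 and Itgam) at least 2-fold lower, against 12% and 16.7% of all genes, with a median of -0.16, so the list as a whole lay near all genes.

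Mitochondrially encoded genes were higher in i3 by composition and near equal by amount. Of 13 listed subunits of the respiratory chain, 9 entered and all 9 were at least 2-fold higher in i3 by CPM, against 12% of all genes, with a median log2 ratio of 1.85 and a range of 1.67 to 2.23. Per ERCC count the median was 0.0013 and 0 of the 9 were past 2-fold in either direction, against 0.448% of all genes higher and 84.8% lower. COX1, a subunit of cytochrome c oxidase, was at 1126, 5711 and 15150 CPM in the lowest, median and highest i3 cell and at 869, 1425 and 3461 CPM in i7 cells. Pooled, it was at 4541 against 1431 CPM and at 131 against 149 counts per 1000 ERCC counts. CYTB was at 143 counts per 1000 ERCC counts in both clusters, and the mitochondrial ribosomal RNA mt-Rnr2 at 226 against 248. Of 35 respiratory chain genes encoded in the nucleus, 1 (Ndufa2) was at least 2-fold higher and 4 were lower, against 12% and 16.7% of all genes, with a median log2 ratio of -0.01. The nuclear gene Atp5a1, a subunit of ATP synthase, was at 352 against 887 CPM.

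Long non-coding RNAs listed as nuclear behaved likewise in part on the shared plate. Of 10 nuclear long non-coding RNAs measured, 6 entered, and 5 of these were at least 2-fold higher by CPM, against 12% of all genes (median log2 ratio 1.37), while the sixth, Gas5, had -0.08. Of the 5, Mir142hg entered only through its level in i3 (14.7 against 6.52 CPM), and without it 4 of 5 were higher. Per ERCC count the median was -0.48 and the sign turned. This did not hold against the other Kupffer cells of the other plates, where the median per ERCC count was 0.05 on the other female plate and 0.84 on the male plate. Malat1, a component of nuclear speckles, was at 182, 4625 and 15323 CPM in the lowest, median and highest i3 cell and at 260, 1150 and 3784 CPM in i7 cells. Of the 92 i3 cells 89 were above the i7 median, yet the pooled value was 120 against 125 counts per 1000 ERCC counts. Xist, which coats the inactive X chromosome, was at 585 against 174 CPM and at 16.8 against 18.1 counts per 1000 ERCC counts. The imprinted antisense transcript Kcnq1ot1 was at 241 against 77.8 CPM, and Neat1, the scaffold of paraspeckles, at 374 against 172 CPM.

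Genes of splicing and chromatin followed in part. Of 27 that entered, 9 were at least 2-fold higher and 0 lower, against 12% and 16.7% of all genes, with a median of 0.62 by CPM and -1.23 per ERCC count. On the other female plate the median per ERCC count was -0.82, and on the male plate 0.28. The 9 were Luc7l2, Luc7l3, Clk4, Son, Pnisr, Rbm25, Rbm39, Kmt2a and Kmt2c. The splicing factor genes Rbm25 and Luc7l3 were at 310 against 96.7 and 133 against 38.3 CPM, the speckle protein gene Son at 632 against 288 CPM, and the histone methyltransferase gene Kmt2a at 182 against 58.3 CPM. The abundant RNA-binding protein genes Hnrnpk (log2 ratio -0.93), Hnrnpa1 (-0.79) and Srsf3 (-0.79) had values of the opposite sign, so the list did not move as 1 unit.

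Protein-coding genes were 80.2% of the higher and 92.6% of the lower genes, beside 91.8% of all genes that entered. Unspliced gene models of the biotype TEC that lie within a protein-coding gene on the same strand included Gm37954 within Srgap2 (83.6 against 12.3 CPM) and Gm37673 within Tmem178b (23.4 against 3.06 CPM). Such a position was about as frequent among the TEC models at least 2-fold higher in i3 (50%) as among all TEC models of the release (47.6%). The TEC model Gm37324 overlaps no other gene. A gene below 10 CPM in i7, such as Gm37673, could enter only by being higher in i3, so counts over kinds of gene with low levels are not given. When genes were put in 5 groups of like size by exon length, the longest had 17.8% higher and 8.78% lower, and those from 2462 to 3781 bases had 7.44% and 21%.

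Gene models built of mouse major satellite repeats, the AT-rich repeats next to the centromeres, were also more abundant in i3 by CPM. They were chosen for description after their values were seen. Gm10800 was at 166 against 27.1 CPM and Gm10801 at 45.5 against 6.86 CPM, with counts in 82 and 49 of 92 i3 cells. Gm10719, Gm10717, Gm17535 and Gm26870, which lie in a cluster of such models on chromosome 9, had log2 ratios of 2.52 to 2.66. Gm10801 was below 10 CPM in i7 and could enter only by being higher in i3, which fixes its direction. With thinned cells Gm10717 and Gm17535 were also below 10 CPM in i7 (6.46 and 7.58 CPM). Gm10800, Gm10719 and Gm26870 were above it in that way, at 29.6, 12.8 and 17.3 CPM in i7. Per ERCC count the 6 models had log2 ratios of 0.67 to 0.80. Some reads of 50 bases cannot be assigned to 1 of these models, since between 17.1% (Gm10801) and 90.1% (Gm17535) of their 50-base stretches also occur in other gene models, with 27.4% for Gm10800. The stretches of Gm10801 and Gm10800 below, read from the GRCm38 genome at chr2:98662237-98662360 (plus strand) and chr2:98666761-98666886 (minus strand), are shown 5′ to 3′ because they show the repeat behind these counts, and the capitals mark a run of 86 bases that is identical in both.
Gm10801: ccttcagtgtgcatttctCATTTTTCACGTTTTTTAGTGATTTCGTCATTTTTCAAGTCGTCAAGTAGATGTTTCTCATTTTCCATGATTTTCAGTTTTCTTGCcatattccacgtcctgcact
Gm10800: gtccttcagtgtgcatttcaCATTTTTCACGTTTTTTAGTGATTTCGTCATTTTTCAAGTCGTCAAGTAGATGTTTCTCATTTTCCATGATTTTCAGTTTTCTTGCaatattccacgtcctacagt

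Transcripts of Alb, Apoa1 and some other hepatocyte genes took a larger share of the RNA in i3, while Trf did not. Summed over all 30 listed hepatocyte markers, the level was 4720 against 2943 CPM. Per cell the list differed less, with a median share of 0.346% in i3 and 0.287% in i7 cells and lower quartiles of 0.169% and 0.245%. Of the 92 i3 cells, 53 (57.6%) were above the i7 median and 25 above the highest i7 cell. Of the 30 markers 18 entered and 17 were at least 2-fold higher by CPM, against 12% of all genes, with a median log2 ratio of 2.42 by CPM and 0.57 per ERCC count. Of the 18, however, Apob, Serpina1a, Serpinc1, Fgg, Cyp2e1 and Fabp1 were below 10 CPM in i7 and could enter only by being higher in i3. Of the 12 with at least 10 CPM in both clusters, 11 were at least 2-fold higher, against 9.86% of all such genes, with a median of 2.34. Alb, which encodes serum albumin, was at 0, 376 and 14187 CPM in the lowest, median and highest i3 cell and at 0, 22.6 and 2012 CPM in i7 cells. It was counted in 88 of 92 i3 cells and in 154 of 161 i7 cells, and the pooled values were 1089 against 201 CPM and 31.4 against 20.9 counts per 1000 ERCC counts. The apolipoprotein gene Apoa1 was at 203 against 33.9 CPM and the transthyretin gene Ttr at 102 against 17.1 CPM. The transferrin gene Trf, the list member with the highest CPM in i3, was at 1914 against 2410 CPM. Over 4 defining markers (Alb, Apoa1, Ttr and Serpina1a) the summed level was 1423 against 257 CPM, with a range of 0 to 17438 CPM over i3 cells and 0 to 2575 CPM over i7 cells. The part of hepatocyte RNA in the difference between i3 and i7 was not tested.

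Markers of other cell types were low beside those of Kupffer cells, and their part in the results above was not tested. The 6 defining endothelial markers summed to 564 CPM in i3 and 562 CPM in i7, with none at 0, but the median cell had 232 CPM in i3 and 472 CPM in i7, and the highest i3 cell 7117 CPM. Most of the sum came from Stab2 (369 and 405 CPM). Within the longer endothelial list, 4 of 12 genes that entered were at least 2-fold higher (Egfl7, Aqp1, Ehd3 and Cldn5), against 12% of all genes. Cldn5 entered only through its level in i3 (10.7 against 3.14 CPM), and without it 3 of 11 were higher, against 9.86%, with a median of 0.12. The median of the 12 was 0.33, but -1.28 with the i11c cells of i3 alone and 1.40 with cells of 100000 to 300000 counts. Ptprb was at least 2-fold lower, at 12.1 against 24.7 CPM, but its log2 ratio was 0.066 with thinned cells. In i3 a single cell held 36.4% of the counts of Egfl7 and 54.2% of those of Aqp1. The 5 markers of monocyte-derived macrophages summed to 46.3 against 39.8 CPM, the 3 B cell markers to 20.5 against 53.1 CPM, and the 3 defining T and natural killer cell markers to 0 against 0.322 CPM, beside 36.5 against 46.1 CPM for the 15 listed genes of these cells. The 4 dendritic cell markers summed to 22.6 against 2.91 CPM, and 1 cell held 98.8% of the Ccr9 counts. Stellate cell markers summed to 44.6 against 24.1 CPM, neutrophil markers to 0.376 against 0.255 CPM, the 1 erythroid marker in the table (Hba-a1) to 9.46 against 0.376 CPM, and the 3 platelet markers to 114 against 18 CPM, with no platelet marker in 64 of 92 i3 cells.

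Lysosomal genes summed to 31466 CPM in i3 and 40103 CPM in i7. Few were past 2-fold. Of 31 that entered, 0 were at least 2-fold higher and 4 were at least 2-fold lower, against 12% and 16.7% of all genes, and 29 had a negative log2 ratio, against 56.2% of all genes, with a median of -0.48 by CPM and -2.34 per ERCC count. Among them were the proton pump subunit gene Atp6ap1 (430 against 875 CPM) and the calcium channel gene Mcoln1 (25.1 against 69.9 CPM). The cathepsin gene Ctsb was at 4936 and 4992 CPM.

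Genes of protein folding in the endoplasmic reticulum and of glycolysis had medians below that of all genes on the shared plate. For the unfolded protein response 4 of 16 genes were at least 2-fold lower (Edem1, Creld2, Pdia4 and Ddit3) and 0 higher, against 16.7% and 12% of all genes, with a median of -0.69, and the chaperone gene Hspa5 was at 519 against 905 CPM. For glycolysis and hypoxia 6 of 18 were lower, against 16.7% of all genes, among them Pfkl, Pfkp, Pgk1 and Eno1, and 1, Pfkfb3, was higher, against 12%, with a median of -0.65. Without Adm, which entered only through i7, 5 of 17 were lower, against 13.5%. For the cell cycle 6 of 14 were lower, with a median of -0.83, but Ccna2, Cdkn1a, Mcm2 and Mcm6 entered only through their level in i7. Of the other 10 genes 2 were lower (the replication genes Mcm3 and Mcm5), against 13.5% of all such genes, with a median of -0.30, and the proliferation markers Mki67, Top2a and Ccnb1 did not reach the level needed to enter. Levels of these genes were low, with Mcm6 at 3.13 against 41.0 CPM.

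**Figure D4:**
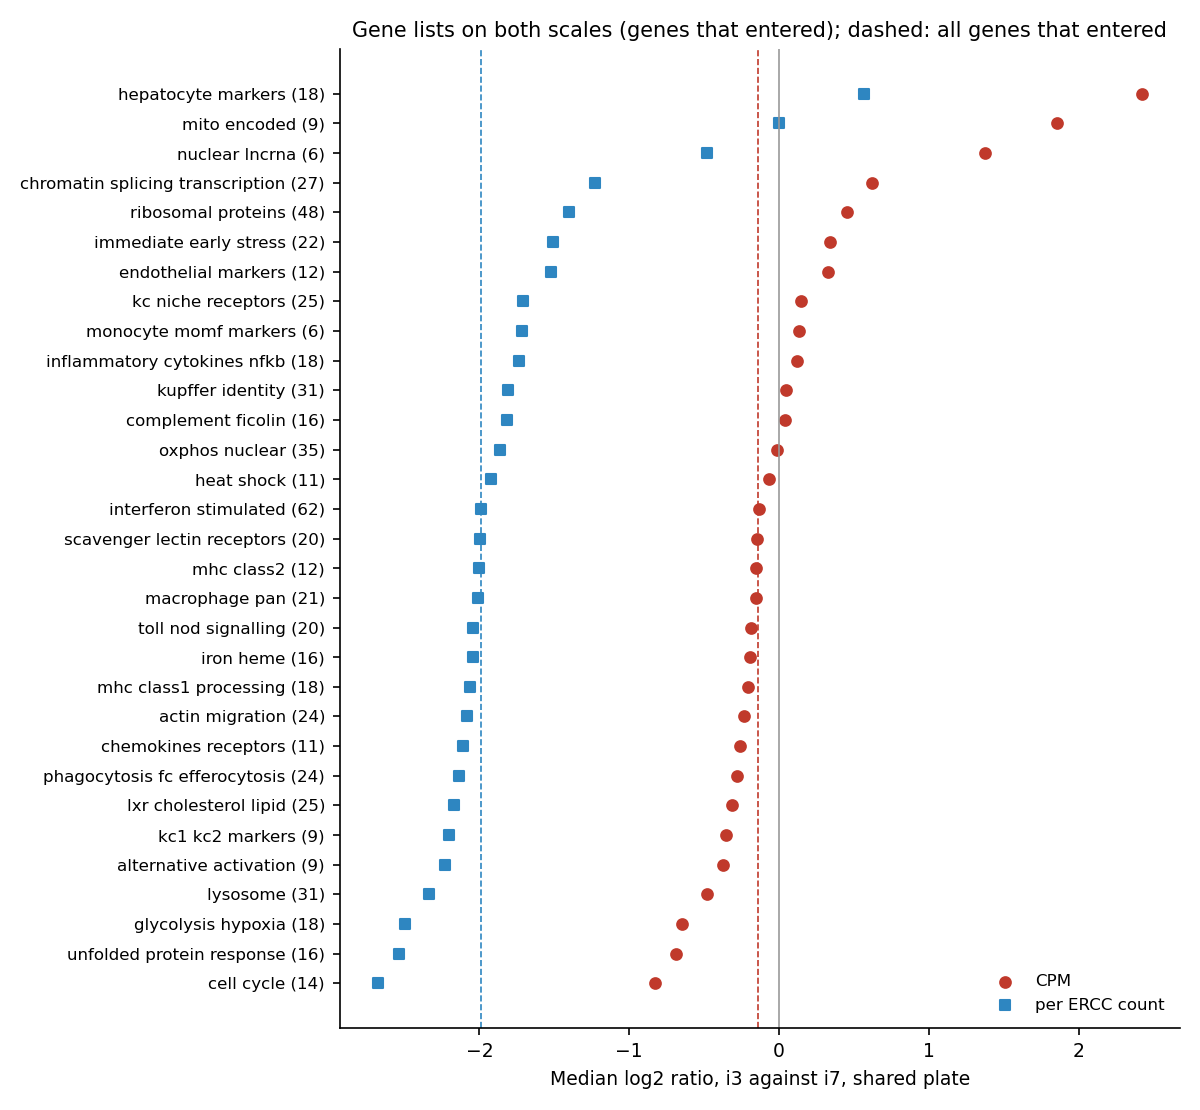
Each row is a gene list with the number of its genes that entered, and the x axis gives the median log2 ratio of i3 to i7 on the shared plate, by CPM (red circles) and per ERCC count (blue squares). Dashed lines mark all 7358 genes (-0.14 and -1.99). Mitochondrially encoded genes (1.85 by CPM) and nuclear RNAs (1.37) lie to the right, as do hepatocyte markers (2.42), of which 6 of 18 entered only through i3 and whose median without these was 2.34.

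Immune response genes lay near the median of all genes (-0.14). Of 62 interferon-stimulated genes, 3 were at least 2-fold higher (Oas2, Nlrc5 and Slfn8) and 4 lower (Cmpk2, Ifit1, Gbp2 and Oasl2), against 12% and 16.7% of all genes, with a median of -0.14. Ifit1 entered only through i7, and without it 3 of 61 were higher and 3 lower, against 9.86% and 13.5%. The antigen presentation lists had medians of -0.21 (class I, 18 genes) and -0.15 (class II, 12 genes), with Cd74, the invariant chain gene, at 2627 and 2324 CPM. Scavenger and lectin receptors had -0.15, Toll-like and NOD signalling genes -0.19, phagocytosis genes -0.28, and complement and ficolin genes 0.04 by CPM, which turned negative with both count-based scaling factors. Receptors and targets of the Kupffer cell niche had 0.14, which also turned, with 2 of 25 at least 2-fold higher (Notch1 and Smad6), against 12% of all genes. Immediate early genes had 0.34 by CPM and -1.51 per ERCC count, with 4 of 22 higher (Jun, Jund, Klf2 and Klf4) and 2 lower (Myc and Atf3), against the same 12% and 16.7%. Jun, a transcription factor gene induced by stress, was at 624 against 282 CPM. Ribosomal protein genes had 0.45 by CPM, with 40 of 48 above 0, against 43.8% of all genes, and 1, Rpl38, at least 2-fold higher, against 12%. Each scaling shifts all log2 ratios alike, so that their median lay above that of all genes on every scale by construction. Per ERCC count it was -1.40.

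The remaining lists of macrophage functions had medians between -0.38 and 0.12, and their counts past 2-fold are to be read beside 12% of all genes higher and 16.7% lower. Genes of inflammatory cytokines and NF-kappa-B had 0.12 by CPM, negative with both count-based factors, with Nfkbiz higher and Il1rn and Cd83 lower among 18. Heat shock genes had -0.07 with 0 of 11 past 2-fold, iron and heme genes -0.19 with 1 of 16 higher (Cp) and 3 lower (Ncoa4, Slc11a1 and Alas1), and cholesterol and lipid genes -0.32 with 1 of 25 higher (Mylip) and 4 lower (Insig1, Acaca, Lpcat3 and Cpt1a). Chemokines and their receptors had -0.26 with 3 of 11 lower (Ccl2, Cxcl14 and Ccl4). Of the 11, Ccl2 and Ccl9 entered only through i7, and without them 2 of 9 were lower, against 13.5%. Ccl4 was at -1.06 but at 0.42 with the cells of all plates. Actin and migration genes had -0.23 with Tmsb10 higher and Vim lower among 24, and alternative activation genes -0.38 with 1 of 9 lower (Cd209f). Markers reported to divide Kupffer cells into KC1 and KC2 subsets had -0.35 with 1 of 9 lower (Cxcl14). The paper did not find these subsets among its Kupffer cells. The cell type lists had few genes that entered, with medians of 0.13 for 6 monocyte-derived macrophage genes, 0.53 for 4 dendritic cell genes, -1.18 for 2 B cell genes and -0.81 for 2 stellate cell genes. The 1 neutrophil gene had 0.69 and the 1 erythroid or platelet gene -0.11, and 0 genes of the T and natural killer cell or bile duct lists entered.

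Among genes with at least 20 CPM and a count in at least 50% of the cells of the higher cluster, the 12 with the highest log2 ratios ran from 2.72 to 4.38. They were Zbtb37, Gm17132, Stag3, RP24.567O8.4, Fn1, RP23.158G17.1, Gm37324, Rbbp6, Tspan18, Pigr, Gm37673 and Gm37954. Zbtb37, a zinc finger gene, was at 55.4 against 2.19 CPM. Its model overlaps the hepatocyte gene Serpinc1 on the other strand and shares 15.2% of its 50-base stretches with it, and Serpinc1 itself was at 53.8 against 6.15 CPM, so reads from these shared stretches cannot be assigned to either gene without strand. In Stag3 and Fn1 a single i3 cell held 83.3% and 77.9% of the counts. Of the 1109 stretches of 50 bases in the pseudogene Gm17132, 70.5% also occur in other gene models. The polymeric immunoglobulin receptor gene Pigr, which is expressed in hepatocytes and bile ducts, was at 78.2 against 10.6 CPM.

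The 12 lowest ran from -3.77 to -2.79 and were Commd10, Imp4, Tbrg1, Scpep1os, Stip1, Pja1, Nelfcd, Hat1, Slc10a3, Ikbkg, B4galt4 and Tm9sf1. Stip1, a co-chaperone gene, was at 18.4 against 155 CPM and was counted in 42 of 92 i3 cells and 116 of 161 i7 cells. Ikbkg, which encodes the NF-kappa-B regulator NEMO, was at 10.7 against 86.4 CPM, and Nelfcd, a subunit of the negative elongation factor, at 7.65 against 64.9 CPM. In Pja1 a single i3 cell held 74.4% of the counts. No gene had to be left out of the 24 because its direction turned when the highest cell was left out or when cells weighed equally.

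Within i3 the community clustering gave 66 cells of the shared plate to i3c, 23 to i11c and 3 to other clusters, and 2 cells of the plate carried the authors' annotation Cont. Of the i7 cells, 3 were also in i11c. Cells of i3c had a median of 18.4 gene counts per ERCC count, 118324 total counts and 4.39% mitochondrial RNA. Cells of i11c lay between these and i7, with 52.5 gene counts per ERCC count, 301860 total counts and 1.57% mitochondrial RNA. Malat1 was at 5399 CPM in i3c and 2524 CPM in i11c, against 1200 CPM in i7, and COX1 at 6083 and 2390 CPM, against 1431 CPM. Alb was at 1694 and 230 CPM, against 201 CPM in i7. In contrast, Adgre1 was at 601 and 616 CPM, against 1690 CPM in i7, and Ncoa4 at 18 and 19.8 CPM, against 112 CPM, so for these genes both groups of i3 cells had like values. Against i7, i11c alone gave a median log2 ratio of 0.78 for mitochondrially encoded genes, 0.72 for nuclear RNAs and 0.52 for hepatocyte markers.

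Beside the other Kupffer clusters of the shared plate, i3 also had the least RNA, with medians of 38.4 gene counts per ERCC count in i1 (5 cells), 56.9 in i4 (20 cells) and 84.5 in i6 (19 cells). Nuclear transcripts took a smaller share of the RNA in i1 than in i3, with plates and sex also differing between the clusters. Over all plates, i1 (117 cells, most of them on male plates, with a median of 11866 ERCC counts per cell against 5943 in i3) had a median of 20.1 gene counts per ERCC count, below the 23.9 of i3, but nuclear RNAs made up 0.0232% of its counts against 0.634% in i3. On the shared plate alone these nuclear shares were nearer each other, at 0.215% in the 5 cells of i1 and 0.599% in i3. Over all plates, Xist was at 4.61 CPM in i1, and Malat1 was at 384 CPM in i1 and 4393 CPM in i3. Mitochondrial RNA made up 2.36% in i1 and 3.56% in i3. Against i1 and i6 of the shared plate together, the list medians in i3 were 1.22 for mitochondrially encoded genes, 1.24 for nuclear RNAs and -0.51 for lysosomal genes. For hepatocyte markers the median was 1.54, and 1.47 over the 14 of 18 with at least 10 CPM in both groups.

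Cells of i3 on other plates were compared with the Kupffer cells of clusters i1, i6 and i7 on the same plate. On the other female plate the 7 i3 cells had a median of 29.8 gene counts per ERCC count against 75.9 in 73 cells. Mitochondrial RNA made up 2.85% against 1.01%, and nuclear RNA 0.637% against 0.207%. Of 7959 genes that entered there, 1991 (25%) were at least 2-fold higher and 3600 (45.2%) lower, and all 9 mitochondrially encoded genes were higher. On the male plate the 9 i3 cells had a median of 18.2 against 37.0 in 21 cells, all of i1, with mitochondrial RNA at 3.79% against 1.79% and nuclear RNA at 1.05% against 0.0337%. Of 5281 genes, 1586 (30.0%) were higher and 2148 (40.7%) lower, and 7 of 9 mitochondrially encoded genes were higher.

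Over all genes that entered, the median log2 ratio was -0.14 on the shared plate, -0.67 on the other female plate and -0.45 on the male plate, so that values below 0 on the other plates are to be read beside these. Over genes with at least 10 CPM in both groups the medians were -0.12, 0.04 and -0.11. Of the 10 lists plotted by plate, which were chosen with their values known, those with the same sign on all 3 plates by CPM were mitochondrially encoded genes (median log2 ratios of 1.85 on the shared plate, 1.74 on the other female plate and 1.06 on the male plate), nuclear RNAs (1.37, 1.49 and 1.72), splicing and chromatin genes (0.62, 0.62 and 1.16), lysosomal genes (-0.48, -1.01 and -0.69), genes of the unfolded protein response (-0.69, -0.49 and -1.17) and glycolysis genes (-0.65, -0.54 and -1.04). Other lists also kept their sign, such as endothelial markers (0.33, 0.16 and 1.12), macrophage genes (-0.16, -0.49 and -0.47) and interferon-stimulated genes (-0.14, -1.01 and -0.92). On the other female plate the medians of the unfolded protein response and glycolysis lists lay above that of all genes (-0.67), but below it with at least 10 CPM in both groups (-0.11 and -0.54 beside 0.04). Kupffer identity genes had 0.04, -0.23 and -0.31. Malat1 had log2 ratios of 1.79, 1.49 and 3.11 on the 3 plates, COX1 1.67, 1.09 and 1.03, and Adgre1 -1.50, -1.55 and -0.93. Hepatocyte markers had 2.42, 0.73 and -0.54, but 2.34, -0.02 and 0.018 over the 12, 5 and 7 genes with at least 10 CPM in both groups. Nuclear RNAs had 0.74 on the other female plate in that way. Medians of immediate early genes were 0.34, -0.95 and 2.55. With 7 and 9 cells on the other plates, single cells weigh heavily in these values, and the male plate also differs in the cluster that i3 was set against.

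**Figure D5:**
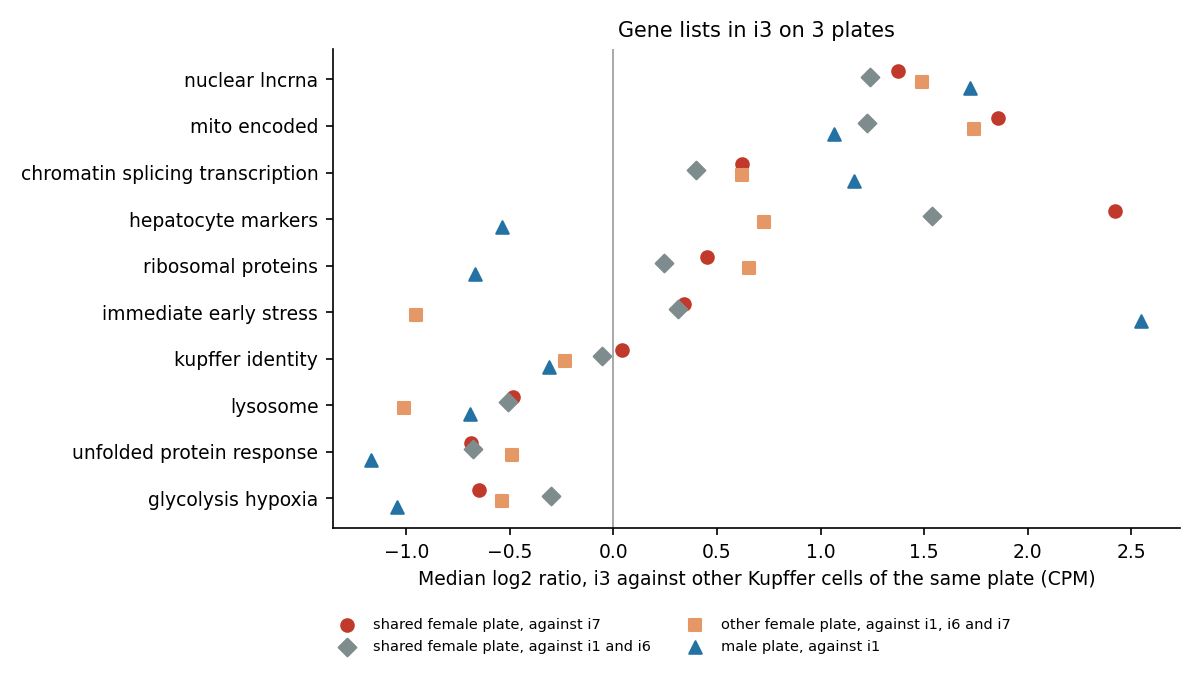
The x axis gives the median log2 ratio (CPM) of 10 gene lists in i3 against other Kupffer cells of the same plate, and each marker is 1 comparison. Nuclear RNAs, mitochondrially encoded genes and splicing and chromatin genes lie to the right of 0 in all 4 comparisons, lysosomal, unfolded protein response and glycolysis genes to the left, and ribosomal protein genes lie on the left of 0 on the male plate alone. Hepatocyte markers do so too, but not when only genes with at least 10 CPM in both groups are kept.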

How the data were processed

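Smart-seq2 libraries of single cells were sequenced with single reads of 50 bases. Per the labels and the study's methods, the authors mapped the reads to the mouse genome (GRCm38, mm10), counted them per gene with featureCounts, and deposited raw counts per gene and cell, with ERCC spike-ins kept. Cells were filtered by the authors ahead of deposit on counts, detected genes, and mitochondrial and ERCC shares, and cells that mixed transcripts of other cell types were taken out, which limits what the clusters can hold. The counts of 40 cells on small plates were not used, none of them in i3. The authors' multilevel and community clusters were taken as deposited, and no doublet caller was run.

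Counts of each cluster were summed and given as CPM without the 92 ERCC spike-ins, or per 1000 ERCC counts. Log2 ratios used a pseudocount of 0.5 CPM. Genes entered with at least 10 CPM and a count in at least 25% of cells of the higher cluster. Called means past 2-fold. Intervals are exact 95% (Poisson or Clopper-Pearson). Depth was 50042 counts or more per cell. edgeR 4.0.16 (trimmed-mean factors) and DESeq2 1.42.0 (median-of-ratios size factors) gave alternative scaling only. Mitochondrial genes are listed under symbols such as COX1. Gene models and sequences came from GRCm38 with GENCODE mouse release 21, matched by symbol for 7065 of 7358 genes. The calculation was tested on simulated counts with known folds.

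Named genes are the 12 highest and 12 lowest log2 ratios among genes with at least 20 CPM and a count in at least 50% of cells of the higher cluster that kept their direction without the highest cell and with cells weighed equally, the cell type markers, up to 4 members of each of 38 gene lists with the largest and up to 3 with the highest level, members behind counts of 5 or fewer, and sex-linked genes. Genes outside this rule were chosen after their values were seen: the satellite models, mt-Rnr2, Srsf3, Hnrnpk, Hnrnpa1, and list members named to complete a count. Some list members are not reported here. Members and lists were chosen with earlier results of these data known. Alternatives for low values, fold, pseudocount, depth, weighting and plates are given in the closing section.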

Additional observations from a re-analysis of the deposited data

Results flagged for a closer look

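For 3 gene lists with at least 5 genes entered on each plate the median log2 ratio of i3 against other Kupffer cells of the same plate had 1 sign on both female plates and the opposite sign on the male plate, and this difference between plates was not tested. Hepatocyte markers had 2.42 on the shared plate and 0.73 on the other female plate, but -0.54 on the male plate. Over genes with at least 10 CPM in both groups these became 2.34, -0.02 and 0.018, so the change of sign rests on genes that entered through 1 group alone. Ribosomal protein genes had 0.45, 0.65 and -0.67. Heat shock genes had -0.07, -1.01 and 0.27, but -0.07, 0.32 and 0.72 in that way, which also does not keep the pattern, while the ribosomal protein values did not change. Stellate cell markers, of which only 2 entered on the shared plate, had -0.81, -1.05 and 1.39, with 9 of 12 at least 2-fold higher on the male plate, against 30.0% of all genes there. Of these 12, however, 5 entered only through i3. With at least 10 CPM in both groups 4 of 7 were higher, against 28.3% of such genes, with a median of 1.14. The male plate gives 9 i3 cells, and its comparison cells are all of cluster i1, in which ribosomal proteins take a median of 2.99% of counts on that plate against 1.03% in the comparison cells of the other female plate. Sex, plate and comparison cluster cannot be told apart here.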

How the results depend on the processing

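Counts of genes past 2-fold (886 higher and 1228 lower) depended on the settings. They were 550 and 1878 with trimmed-mean factors, 559 and 1826 with median-of-ratios factors, 4250 and 3474 with no filter, 270 and 511 with a stricter filter of 50 CPM in 50% of cells, 1600 and 2215 at 1.5-fold, 180 and 260 at 4-fold, and 33 and 6238 per ERCC count. Leaving out the highest cell of each gene gave 627 and 2016, and i3c cells alone gave 1111 and 1922. With cells of 100000 to 300000 counts they were 1483 and 1479, so lower genes were no longer in excess. On the other female plate they were 1991 and 3600, and on the male plate 1586 and 2148. Per ERCC count the list medians became -1.81 (Kupffer identity, turned), -2.34 (lysosome), 0.0013 (mitochondrially encoded), -1.40 (ribosomal proteins, turned), -0.48 (nuclear RNAs, turned), -1.23 (splicing and chromatin, turned), -1.52 (endothelial, turned) and 0.57 (hepatocyte). With i11c cells alone they were 0.78 (mitochondrially encoded), 0.72 (nuclear RNAs), -1.28 (endothelial, turned) and 0.52 (hepatocyte), and with cells of 100000 to 300000 counts 1.40 (endothelial) and 1.76 (hepatocyte). On the male plate they were 1.06 (mitochondrially encoded), -0.67 (ribosomal proteins, turned), 1.12 (endothelial) and -0.54 (hepatocyte, turned), and on the other female plate 0.73 (hepatocyte). With at least 10 CPM required in both clusters, 664 genes were higher and 910 lower. This requirement, the ERCC scale, the depth range, the community clusters and the other plates were chosen after seeing the data. Of 253 named genes, 27 moved by 1.5-fold or more with the highest cell left out. Ccl4 turned to 0.42 with all plates and Ptprb to 0.066 with thinned cells. Beyond the settings' own construction, the cause was not tested. Depth limits genes near 10 CPM, where a median i3 cell holds few reads. No paired analysis was possible because 161 of 164 i7 cells lie on 1 plate, and the comparisons of i3 with other clusters on further plates are values with no test.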

Other observations

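A pair of further transcripts was higher in i3 by CPM and, to a lesser degree, per ERCC count, and was chosen after the values were seen. Lars2, which encodes the mitochondrial leucyl-tRNA synthetase from the nuclear genome, was at 7.38, 533 and 2455 CPM in the lowest, median and highest i3 cell and at 22.5, 110 and 582 CPM in i7 cells. Of the 92 i3 cells, 91 were above the i7 median, and the pooled value was 14.8 against 13.1 counts per 1000 ERCC counts. The long non-coding gene model Gm26917 on chromosome 17 was at 966 against 196 CPM and at 27.8 against 20.4 counts per 1000 ERCC counts.

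Secreted and cytoskeletal genes with high levels did not share 1 direction. The apolipoprotein gene Apoe was at 6537 against 3689 CPM, with 89 of 92 i3 cells above the i7 median, and the actin-binding gene Tmsb4x at 2044 against 1266 CPM, with 86 of 92. The intermediate filament gene Vim was at 85.2 against 242 CPM. Per 1000 ERCC counts all 3 were lower in i3, with Apoe at 188 against 384, Tmsb4x at 58.9 against 132 and Vim at 2.45 against 25.2.

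The only i3 cell of the second male plate had Malat1 at 137 CPM, below the lowest i3 cell of the shared plate (182 CPM), with Mrc1 at 3705 CPM and 9.90 gene counts per ERCC count.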
